A study of Mus musculus with 8 samples.

Results

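The G1 cyclins, the kinases they activate and the Cks proteins were examined as 10 genes, Ccnd1, Ccnd2, Ccnd3, Ccne1, Ccne2, Cdk2, Cdk4, Cdk6, Cks1b and Cks2, which were found by symbol among the 42391 gene entries of the raw count matrix. The members were selected on values of the siRNA comparison, namely the log2 fold changes within replicate pairs and the lower Cks1b level in both cell types, so values of the 10 genes after siRNA are given as a description with no test. RNA was sequenced from 8 samples, with 2 independent replicates for each of 4 groups of wild-type mouse muscle cells. C2C12 cells, a myoblast line that forms myotubes once serum is withdrawn, received non-targeting siRNA (control) or Septin9 siRNA (Septin9-deficient). The dose was 50 nM, or 100 nM during the first 5 h, which were spent in reduced-serum medium. The cells then grew in medium with 10% FCS until the last 12 h, when serum-reduced medium induced differentiation. They were collected at 60 h. Primary myoblasts, cultured from mouse hindlimb muscle and kept in medium with 20% FCS and 10% HS, received either siRNA and were collected proliferating at 48 h. Every control thus carried a transfected siRNA, and a single Septin9 siRNA was used, so that effects of its other targets cannot be told apart from those of Septin9.

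Cells enter the division cycle through cyclin-dependent kinases that are inactive without a cyclin. The D cyclins couple growth factor signals to Cdk4 and Cdk6, which begin to phosphorylate the retinoblastoma protein, and the E cyclins then activate Cdk2 at the start of DNA synthesis. The small Cks proteins bind these kinases and help them to dock phosphorylated substrates, and Cks1b is also the cofactor with which the Skp2 ubiquitin ligase recognizes the inhibitor encoded by Cdkn1b. In muscle precursors Ccnd1 with Cdk4 is known to hold back differentiation, whereas Ccnd3 is the D cyclin known to persist as muscle cells differentiate.

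Between 20898611 and 27223414 reads were counted per library. Septin9 itself was measured first and had 410 and 435 CPM (counts scaled to a common library size by TMM over all libraries) in the control C2C12 replicates and 147 and 185 CPM with Septin9 siRNA. Primary myoblasts had 376 and 473 CPM with control siRNA against 208 and 159 CPM with Septin9 siRNA. The log2 fold change of Septin9 was -1.36 (standard error, SE, 0.08, adjusted p = 5.11e-09 from the quasi-likelihood test of edgeR) in C2C12 and -1.21 (SE 0.15, adjusted p = 0.000134 from edgeR) in primary myoblasts. Myoblast markers were present in all libraries. The 6 markers of committed myocytes, among them Myh3 and Myog, summed to 94 to 161 CPM in control C2C12 cells and to 2395 to 8489 CPM in control primary myoblasts, which the labels call proliferating, and all 6 were higher in the primary cells (18.3% of all genes were). The proliferation markers Mki67 and Top2a summed to 414 to 826 CPM in control C2C12 cells and to 396 to 473 CPM in control primary myoblasts. Fibroblast and fibro-adipogenic markers summed to 136 to 165 CPM in control C2C12 cells and 13.5 to 95.4 CPM in control primary myoblasts. Tcf21 was at 0 throughout. The 4 endothelial markers summed to at most 4.77 CPM and 5 immune markers to at most 3.82 CPM. In control primary myoblasts the lower fibroblast sum and the higher myocyte sum were those of replicate 1. There replicates 1 and 2 had 1.03 and 31.7 CPM of Pdgfra and 5021 and 1128 CPM of Myh3.

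Counts of some members are uncertain because their gene spans overlap a neighbour and the strand setting of the counting is not given in the sources used here. In RefSeq, Cdk2 lies within the span of Pmel, Ccne2 shares 5622 bases with Ints8, Ccnd1 shares 818 bases with LTO1 and Ccnd3 shares 359 bases with Bysl. On GRCm38 the D cyclin genes lie at chr7:144929931-144939925 (Ccnd1), chr6:127125162-127152193 (Ccnd2) and chr17:47505051-47599691 (Ccnd3). The kinases lie at chr10:128697939-128705031 (Cdk2), chr10:127063534-127067920 (Cdk4) and chr5:3341485-3531008 (Cdk6), and the E cyclins at chr7:38097984-38107534 (Ccne1) and chr4:11191351-11204779 (Ccne2). Cks1b lies at chr3:89415472-89418383 and Cks2 at chr13:51645232-51650660.

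Levels were compared between genes as CPM per kb of exon, with the union of all annotated exons of a gene as its length. That length can exceed the transcript expressed. Ccnd3 was given 8775 bases, while its longest stretch after the coding sequence has 915. The order of genes, the span and the shares below therefore depend on the annotation as well as on expression. In control C2C12 cells Cks2 had the highest level of the 10 genes, at 95.9 ± 34.7 CPM per kb (SD, n = 2), followed by Cdk4 at 65.3 ± 5.09, Cks1b at 48.0 ± 20.2 and Ccnd1 at 38.5 ± 17.9 CPM per kb. Ccne2 and Ccnd3 followed at 10.5 and 10.4 CPM per kb, then Cdk2, Cdk6 and Ccne1 at 6.65, 5.33 and 5.20 CPM per kb. Ccnd2 was last at 0.694 CPM per kb, so that the levels spanned 138-fold. The replicates of 5 neighbouring pairs overlapped, namely Cdk4 with Cks1b, Cks1b with Ccnd1, Ccne2 with Ccnd3, Cdk2 with Cdk6 and Cdk6 with Ccne1, and the order within these pairs is therefore not resolved. In control primary myoblasts Ccnd1 led at 168 ± 47.0 CPM per kb (SD, n = 2), followed by Cdk4 at 107 CPM per kb, Cks2 at 76.3 CPM per kb and Cks1b at 71.5 CPM per kb. Ccnd3 and Ccnd2 had 45.4 and 39.2 CPM per kb, ahead of Ccne1 at 19.9, Ccne2 at 13.0, Cdk2 at 9.80 and Cdk6 at 8.46 CPM per kb. Here the replicates of Cks2 and Cks1b and those of Ccnd3 and Ccnd2 overlapped, and the levels spanned 19.8-fold.

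**Figure D1:**
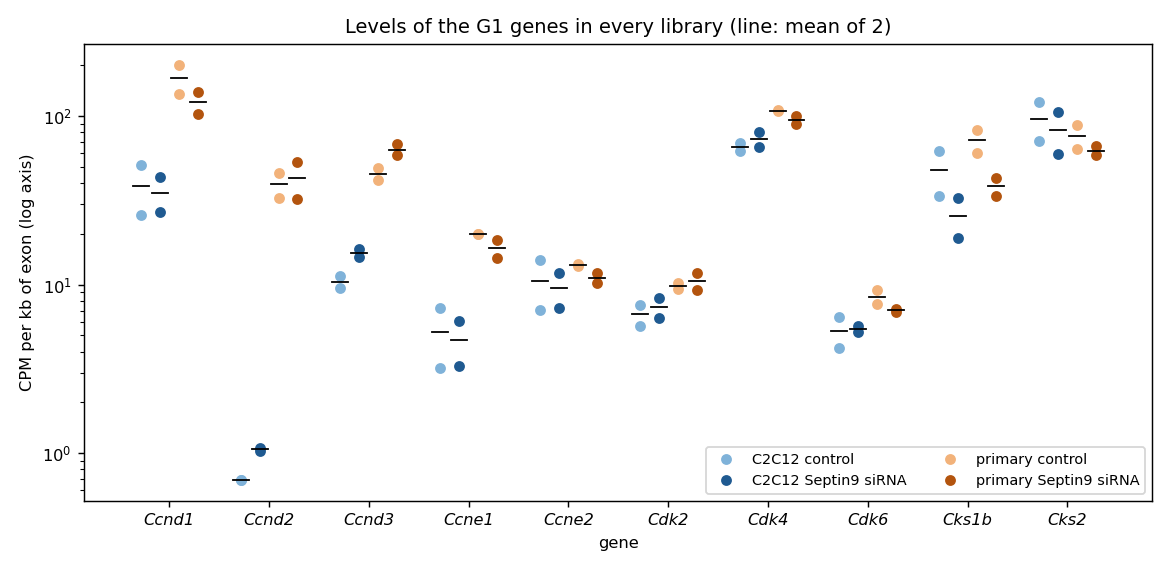
Level of each gene in CPM per kb of exon on a log axis, with 1 point per library, colours for the 4 groups and a black line at the mean of the 2 replicates. Ccnd2 sits near 0.694 CPM per kb in control C2C12 cells and at 39.2 CPM per kb in control primary myoblasts, while Cdk4 stays between 61.7 and 108 CPM per kb in all libraries.

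The first comparison asked how the G1 genes differ between the control groups, which was tested because it does not use the response to siRNA. Of the 10 genes, all of which passed the filter on low counts, 5 were higher in primary myoblasts (adjusted p under 0.05) and 0 were lower, where 18.3% of the 17103 genes tested were higher and 16.2% were lower. The median log2 difference was 0.70 over the 10 genes and 0.01 over all genes. Cell type, medium, serum, time after transfection and differentiation change together here and cannot be told apart. Nor can a smaller number of expressing cells be told apart from less RNA per cell in these bulk samples. The same comparison among the Septin9-deficient libraries, which shares no library with the first, placed 4 of the 10 genes higher and 0 lower, where 19.9% and 18.2% of 17039 genes were higher and lower. This second comparison comes from the same experiments, whose control and Septin9-deficient libraries deviated together, so the comparisons are not independent.

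All 3 D cyclins were higher in primary myoblasts. Ccnd2, known as a growth factor-responsive cyclin of many progenitor cells, had 6.55 and 6.51 CPM in the control C2C12 replicates and 305 and 433 CPM in the control primary replicates. The control groups were far apart, with a log2 difference of 5.83 (SE 0.26, adjusted p = 0.00216 from the quasi-likelihood test of edgeR), or 56.8-fold. In Septin9-deficient cells the log2 difference of Ccnd2 was 5.34 (SE 0.33, adjusted p = 0.000536 from edgeR). Ccnd1, the D cyclin most directly induced by mitogens, had 241 and 122 CPM in control C2C12 cells and 634 and 947 CPM in control primary myoblasts. Its replicates differed widely in both cell types, yet all primary values lay above all C2C12 values, with a log2 difference of 2.13 (SE 0.40, adjusted p = 0.0192 from edgeR) in controls and 1.79 (SE 0.30, adjusted p = 0.00751 from edgeR) in Septin9-deficient cells. Ccnd3 had 83.5 and 98.3 CPM in control C2C12 cells and 430 and 367 CPM in control primary myoblasts. Its replicates were closer together, and the log2 difference was 2.14 (SE 0.18, adjusted p = 0.00442 from edgeR) in controls and 2.04 (SE 0.19, adjusted p = 0.00141 from edgeR) in Septin9-deficient cells. Leaving out C2C12 replicate 2, the library with the lower Ccnd1 level, moved the Ccnd1 adjusted p from edgeR to 0.0848 in controls and 0.0592 in Septin9-deficient cells, with ranges over the alternatives from 6.52e-07 to 0.0848 and from 6.4e-08 to 0.0592. Ccnd2 and Ccnd3 passed in all 10 alternatives of the control comparison and all 9 of the Septin9-deficient one.

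The makeup of the D cyclin level differed accordingly. Per kb of exon, the 3 D cyclins together had 61.4 and 37.7 CPM per kb in the control C2C12 replicates and 216 and 289 CPM per kb in the control primary replicates. Ccnd1 made up 83.4% and 68.5% of this sum in control C2C12 cells and 62.3% and 69.6% in control primary myoblasts. Ccnd2 contributed 1.14% and 1.83% in control C2C12 cells but 15.0% and 15.9% in control primary myoblasts. These shares have no test, and their size depends on the exon lengths used.

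The E cyclins did not move together between the cell types. Ccne1 had 19.2 and 8.46 CPM in control C2C12 cells and 53.1 and 53.0 CPM in control primary myoblasts, with a log2 difference of 1.95 (SE 0.41, adjusted p = 0.0238 from the quasi-likelihood test of edgeR). In Septin9-deficient cells its log2 difference was 1.81 (SE 0.32, adjusted p = 0.00888 from edgeR). Without C2C12 replicate 2 the Ccne1 adjusted p in controls was 0.0543, and without primary replicate 1 it was 0.0512 (edgeR), in a range from 3.75e-05 to 0.0543 over the alternatives. Ccne2 had 48.9 and 24.7 CPM in control C2C12 cells and 44.9 and 46.1 CPM in control primary myoblasts. The primary values lay between the C2C12 replicates, and the log2 difference of 0.32 (SE 0.34, adjusted p = 0.499 from edgeR) did not pass. Ccne2 made up 66.0% and 69.0% of the E cyclin level per kb in control C2C12 cells and 39.2% and 39.9% in control primary myoblasts.

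Among the kinases Cdk4, the main partner of the D cyclins, had 224 and 201 CPM in control C2C12 cells and 347 and 350 CPM in control primary myoblasts, a log2 difference of 0.73 (SE 0.14, adjusted p = 0.0213 from the quasi-likelihood test of edgeR). The groups did not overlap, but the call was lost when any library was left out, with adjusted p-values of 0.0661 to 0.111 from edgeR, and with the replicate block, at 0.0592, in a range from 0.000361 to 0.111 over the alternatives. It also did not pass in Septin9-deficient cells, where the log2 difference was 0.38 (SE 0.19, adjusted p = 0.161 from edgeR). Cdk6, the other kinase of the D cyclins, had 90.1 and 59.1 CPM in control C2C12 cells and 130 and 107 CPM in control primary myoblasts, at a log2 difference of 0.68 (SE 0.25, adjusted p = 0.0939 from edgeR). Cdk2, the kinase of the E cyclins, had 47.3 and 35.5 CPM against 63.5 and 58.4 CPM, at a log2 difference of 0.57 (SE 0.19, adjusted p = 0.0752 from edgeR). Neither passed in either comparison, but Cdk6 passed between controls with all 8 samples in 1 fit (adjusted p = 0.0426 from edgeR, in a range from 0.0426 to 0.297 over the alternatives). Cdk4 made up between 91.5% and 93.6% of the summed Cdk4 and Cdk6 level per kb in all 8 libraries.

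The Cks genes did not pass between cell types in the fits without a block. Cks1b had 70.1 and 37.9 CPM in control C2C12 cells and 67.7 and 93.4 CPM in control primary myoblasts, with a log2 difference of 0.59 (SE 0.34, adjusted p = 0.237 from the quasi-likelihood test of edgeR). Cks2 had 83.3 and 49.4 CPM against 44.1 and 61.4 CPM, with a log2 difference of -0.32 (SE 0.31, adjusted p = 0.456 from edgeR). In both genes the C2C12 replicates were further apart than the group means. This also held for the primary replicates of Cks2 but not for those of Cks1b. The direction of Cks2 turned without C2C12 replicate 1. With the replicate numbers crossed as a block, an alternative chosen after the data were seen, Cks1b passed in controls at 0.63 (adjusted p = 0.0387 from edgeR), in a range from 0.0387 to 0.64 over the alternatives. Among Septin9-deficient cells the log2 differences were 0.58 (SE 0.29) for Cks1b and -0.41 (SE 0.29) for Cks2, to which edgeR gave adjusted p-values of 0.161 and 0.305.

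**Figure D2:**
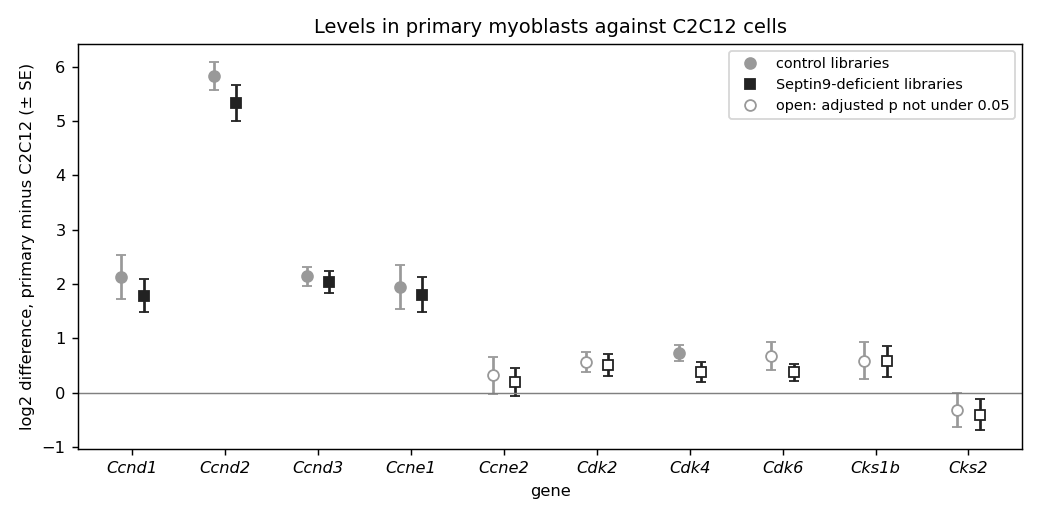
Log2 difference of each gene, primary myoblasts minus C2C12 cells, with the standard error of the edgeR fit, in control libraries (grey circles) and Septin9-deficient libraries (black squares), open where the adjusted p was not under 0.05. Ccnd2 stands apart at 5.83 and 5.34, Ccnd1, Ccnd3 and Ccne1 lie between 1.79 and 2.14, and the other genes lie between -0.41 and 0.73.

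The promoters of Cks1b, Cks2 and Cdk4 are shown because they hold the most motif matches among the members. RefSeq gives promoter windows, from 250 bases before to 50 bases after a start, for 7 of the 10 members on GRCm38.p6, and Ccnd1, Ccnd2 and Ccne2 had no entry. Both strands were searched for the CCAAT box (CCAAT, the site of the factor NF-Y), the cell cycle homology region (CHR, TTTGAA), the E2F site (TTTCCCGC, TTTGGCGC, TTTCGCGC or TTTGCCGC), the E-box CACGTG bound by Myc proteins and the E-box CAGCTG bound by myogenic factors. Matches are in capitals, printed 5′ to 3′ on the gene's strand, and those shown do not overlap each other. The windows are chr3:89418242-89418541 on the minus strand for Cks1b, chr13:51644982-51645281 on the plus strand for Cks2 and chr10:127063285-127063584 on the plus strand for Cdk4.
Cks1b: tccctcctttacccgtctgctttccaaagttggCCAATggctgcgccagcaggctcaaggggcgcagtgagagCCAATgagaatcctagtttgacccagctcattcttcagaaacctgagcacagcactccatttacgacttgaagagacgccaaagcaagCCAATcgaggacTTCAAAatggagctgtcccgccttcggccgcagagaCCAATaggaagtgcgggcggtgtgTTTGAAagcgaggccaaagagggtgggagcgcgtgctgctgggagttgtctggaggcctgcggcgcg
Cks2: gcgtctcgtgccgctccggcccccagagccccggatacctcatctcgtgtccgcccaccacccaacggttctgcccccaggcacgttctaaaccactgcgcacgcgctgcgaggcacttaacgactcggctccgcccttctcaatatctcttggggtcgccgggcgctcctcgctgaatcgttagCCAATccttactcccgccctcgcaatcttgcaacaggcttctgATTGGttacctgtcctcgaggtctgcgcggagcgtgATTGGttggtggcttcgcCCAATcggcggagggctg
Cdk4: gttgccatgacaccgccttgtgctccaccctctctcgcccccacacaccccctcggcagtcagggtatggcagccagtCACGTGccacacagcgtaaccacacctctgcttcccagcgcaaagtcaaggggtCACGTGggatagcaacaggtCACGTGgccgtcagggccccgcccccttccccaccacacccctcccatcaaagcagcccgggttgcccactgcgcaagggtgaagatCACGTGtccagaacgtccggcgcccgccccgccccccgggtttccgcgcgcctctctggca

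The Cks1b window held 4 CCAAT boxes and 2 CHR matches, the Cks2 window held 4 CCAAT boxes, and the Cdk4 window held 4 CACGTG matches. Of the 32851 promoter windows of this length, 37.4% held a CCAAT box, 17.9% a CHR match and 7.15% a CACGTG match. At least 4 CCAAT boxes were found in 1.06% of windows and at least 4 CACGTG matches in 0.0244%. An E2F match, held by 2.26% of all windows, was found in Cdk2 only among the 7 members, and the Cdk2 window also held a CCAAT box and a CAGCTG match (16.3% of all windows). GENCODE M21 places the 5′ end of the Cks1b gene at 89418383, inside the window shown and before the RefSeq start. The CCAAT boxes at -89 and -41 and both CHR matches lie after that position, within the annotated gene. A match is a description of the letters and does not show that a factor binds.

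**Figure D3:**
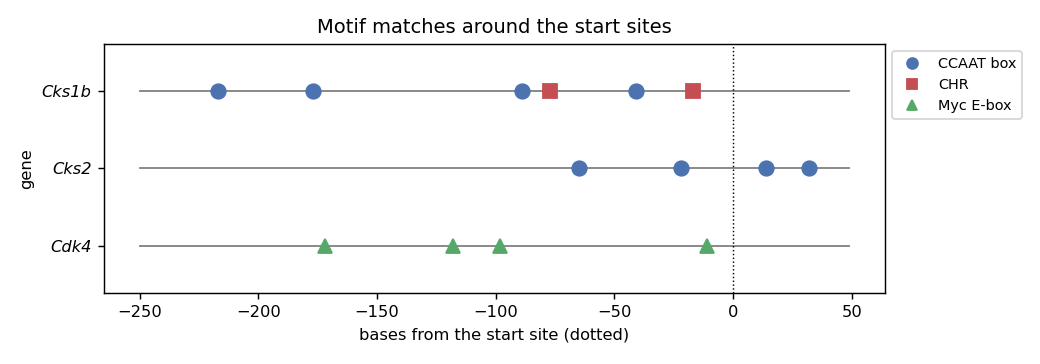
Motif matches in the promoter windows of Cks1b, Cks2 and Cdk4, placed by distance in bases from the RefSeq start site (dotted line), with the 300-base window as a grey line. The 4 CCAAT boxes of Cks1b lie from -217 to -41 with CHR matches at -77 and -17, those of Cks2 lie from -65 to 32, and the 4 CACGTG matches of Cdk4 lie from -172 to -11.

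After Septin9 siRNA the largest difference among the 10 genes was that of Cks1b, in both cell types. In C2C12 cells Cks1b had 70.1 and 37.9 CPM in control replicates 1 and 2 and 36.5 and 21.3 CPM with Septin9 siRNA. Every Septin9-deficient value lay below every control value, although control replicate 2 was close to Septin9-deficient replicate 1. The fitted log2 fold change was -0.90 (SE 0.07), or 53.6% of control, and the log2 ratios within replicate pairs were -0.94 and -0.83. In primary myoblasts Cks1b had 67.7 and 93.4 CPM with control siRNA against 48.4 and 37.9 CPM with Septin9 siRNA, again without overlap. The fitted log2 fold change was -0.89 (SE 0.14), or 54.0% of control, while the pairs stood at -0.48 and -1.30 and were thus less alike than in C2C12 cells.

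Cks1b was also the only one of the 10 genes with a heptamer match to the siRNA seed after its coding sequence. Shorter or shifted seed matches were not searched. The heptamer GACGTGT is complementary to guide positions 2 to 8, with the guide taken as the reverse complement of the siRNA sequence given in the study's methods, and was searched on the transcript strand in the protein-coding transcripts of the basic GENCODE M21 annotation. It lies in the 3′ UTR of Cks1b, in exon 3 of 3 on the minus strand, at chr3:89415605-89415611 on GRCm38, in 2 of 2 transcripts. The site is shown with 10 bases on either side, from chr3:89415595-89415621, with the heptamer in capitals.
Cks1b site: tgaatttgctGACGTGTtttttactat

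Of genes with a stretch after the coding sequence as long as that of Cks1b (439 bases, within 25%), 0.559% held this heptamer. All tested genes with a stretch of any length from 20 bases, other than Septin9, were then split by the heptamer. In C2C12 cells 21.6% of the 402 genes with it were called lower (adjusted p under 0.05), against 4.07% of the 11819 without it. Called higher were 0.995% and 2.83%. In primary myoblasts 10.5% of 438 genes and 0.882% of 12695 genes were called lower, and 2.05% and 4.07% higher. The genes with and without the heptamer were not matched for length. Longer stretches hold it more often, at 0.511% of genes near the length of Cks2 (271 bases) and 16.2% near that of Cdk6 (10217 bases). The median log2 fold changes of genes with the heptamer were -0.12 in both cell types, against -0.000166 and 0.00717 without it. The part of the seed match in the lower Cks1b level was not tested.

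Cks2, the near relative of Cks1b, differed less after siRNA. It had 83.3 and 49.4 CPM with control siRNA against 73.3 and 41.1 CPM with Septin9 siRNA in the C2C12 line, with overlapping groups and a log2 fold change of -0.23 (SE 0.07). Primary myoblasts had 44.1 and 61.4 CPM with control siRNA against 40.4 and 45.8 CPM with Septin9 siRNA, at -0.27 (SE 0.11). All 4 replicate pairs were lower, by log2 ratios of -0.19 and -0.26 in C2C12 and -0.13 and -0.42 in primary myoblasts. The share of Cks1b in the summed Cks level per kb was 34.1% and 32.1% in control C2C12 cells against 23.4% and 24.2% with Septin9 siRNA, and 48.5% and 48.3% against 42.4% and 33.7% in primary myoblasts.

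**Figure D4:**
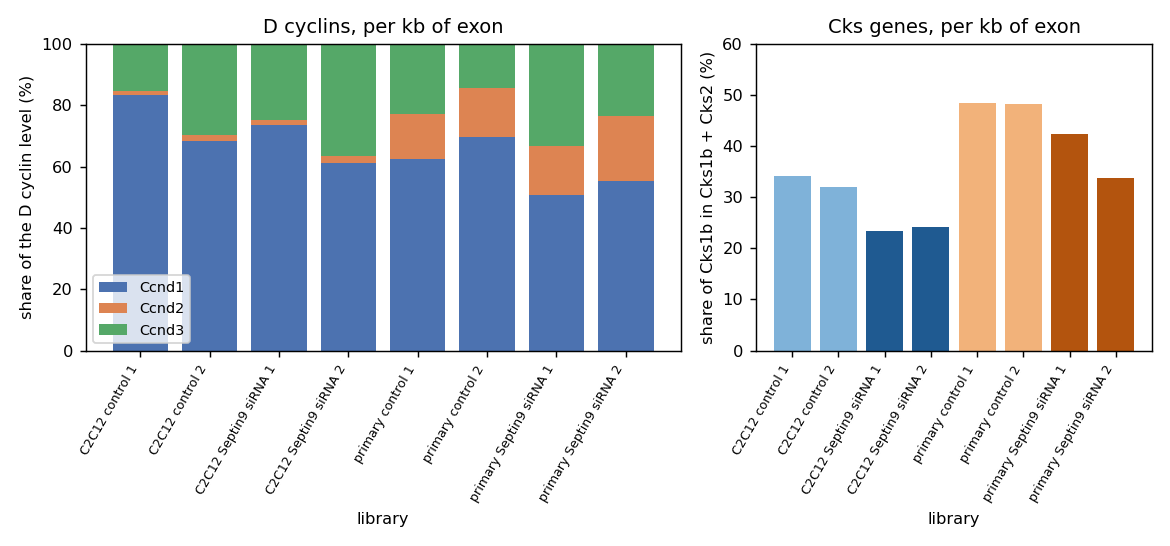
Left, share of each D cyclin in the summed D cyclin level per kb of exon, in percent, with 1 bar per library. Right, share of Cks1b in the summed Cks1b and Cks2 level per kb, in percent, which lies at 32.1% or more in control and at 24.2% or less in Septin9-deficient C2C12 cells.

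The D cyclins differed from each other after siRNA. Ccnd3 was higher in all 4 replicate pairs. It had 83.5 and 98.3 CPM with control siRNA against 127 and 142 CPM with Septin9 siRNA in the C2C12 line, without overlap, at a log2 fold change of 0.56 (SE 0.07) with pairs at 0.61 and 0.53. Primary myoblasts had 430 and 367 CPM with control siRNA against 595 and 514 CPM with Septin9 siRNA, again without overlap, at 0.48 (SE 0.13) with pairs at 0.47 and 0.49. Ccnd2 had 6.55 and 6.51 CPM with control siRNA against 10.1 and 9.69 CPM with Septin9 siRNA in the C2C12 line, which did not overlap and gave a log2 fold change of 0.59 (SE 0.14) at this low level. In primary myoblasts Ccnd2 had 305 and 433 CPM against 302 and 501 CPM, with overlap and pairs of opposite sign at -0.02 and 0.21. Ccnd1 had 241 and 122 CPM with control siRNA against 203 and 127 CPM with Septin9 siRNA in the C2C12 line, where the pairs of -0.25 and 0.06 had opposite signs. Primary myoblasts had 634 and 947 CPM with control siRNA against 484 and 653 CPM with Septin9 siRNA, with both pairs lower, at -0.39 and -0.54, and a log2 fold change of -0.46 (SE 0.13). The groups overlapped, and the control replicates were further apart than control and Septin9-deficient cells of a pair. The share of Ccnd3 in the D cyclin level per kb was 15.5% and 29.7% in control C2C12 cells against 24.7% and 36.6% with Septin9 siRNA, and 22.7% and 14.5% against 33.4% and 23.4% in primary myoblasts, so that it was higher within each pair.

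The E cyclins and the kinases had log2 fold changes from -0.29 to 0.14 after siRNA. Ccne1 had 19.2 and 8.46 CPM with control siRNA against 16.2 and 8.69 CPM with Septin9 siRNA in the C2C12 line, and 53.1 and 53.0 CPM against 48.8 and 38.5 CPM in primary myoblasts. Its log2 fold changes were -0.13 (SE 0.12) and -0.29 (SE 0.11), and those of Ccne2 were -0.12 (SE 0.08) and -0.25 (SE 0.11). For both E cyclins the C2C12 pairs had opposite signs and the primary groups did not overlap. Cdk4 had 224 and 201 CPM with control siRNA against 259 and 213 CPM with Septin9 siRNA in the C2C12 line, at 0.14 (SE 0.07), but 347 and 350 CPM against 325 and 292 CPM in primary myoblasts, at -0.18 (SE 0.12). Cdk6 had log2 fold changes of 0.05 (SE 0.09) in C2C12 cells, where its pairs were -0.19 and 0.30, and -0.26 (SE 0.11) in primary myoblasts, where both pairs were lower. Cdk2 had log2 fold changes of 0.14 (SE 0.07) and 0.09 (SE 0.11).

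**Figure D5:**
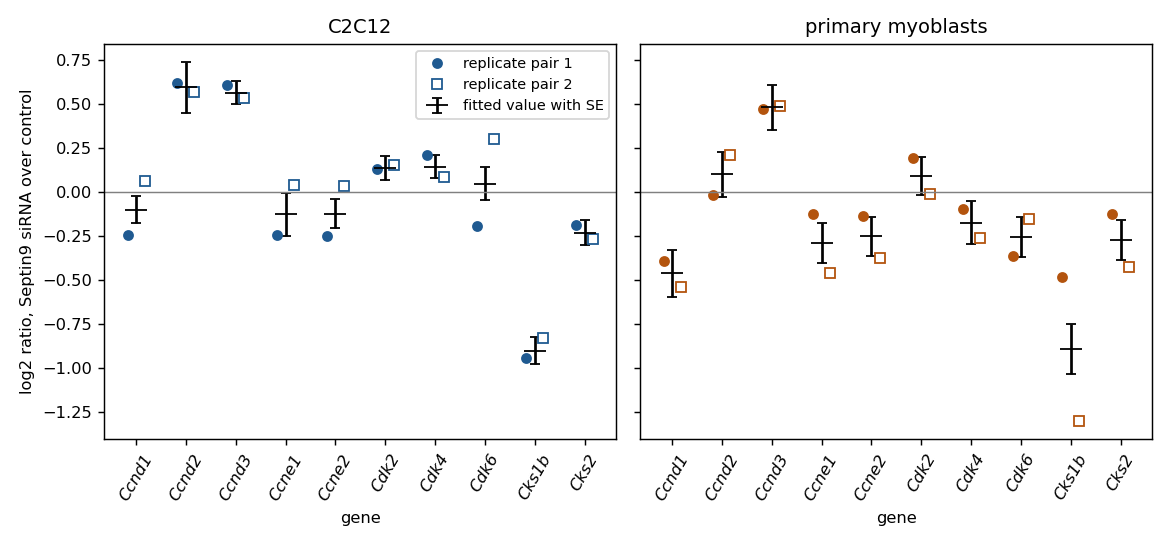
Log2 ratio of Septin9-deficient over control for each gene within replicate pair 1 (circles) and pair 2 (open squares), with the fitted log2 fold change and its standard error in black, for C2C12 cells (left) and primary myoblasts (right). Cks1b is the lowest gene in both panels, with pairs at -0.94 and -0.83 and at -0.48 and -1.30, and Ccnd3 lies between 0.47 and 0.61 in all 4 pairs.

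By the rule applied to all genes, adjusted p under 0.05, Ccnd2 and Ccnd3 counted as higher and Cks1b as lower in C2C12 cells, where 2.64% and 4.12% of the 15814 genes tested were higher and lower. In primary myoblasts Ccnd3 counted as higher and Cks1b as lower, where 3.95% and 1.04% of 17117 genes did. Over 7 alternatives in each cell type, Ccnd2 was called in 2, Ccnd3 in 4 and Cks1b in 6 for C2C12 cells, and Ccnd3 was called in 5, Cks1b in 6 and Ccnd1, as lower, in 4 for primary myoblasts. Ccnd2 was not called by DESeq2, without the block or without either replicate pair. Because the genes were chosen with this contrast known, nothing is read from these counts. Without the replicate block edgeR called 0 genes in either cell type, with 372 and 378 genes at an unadjusted p under 0.05, while DESeq2 with the block called 276 and 256 genes. The groups did not overlap for 3 of the 10 genes in C2C12 and for 6 in primary myoblasts, against 25.4% and 27.8% of all genes. Over the 10 genes the log2 fold change had a median of -0.03 in C2C12 and -0.25 in primary myoblasts, against -0.000787 and 0.01 over all genes.

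The spread between independent experiments differed among these genes in C2C12 cells. From control replicate 1 to control replicate 2 the log2 difference was -1.18 for Ccne1, -0.99 for Ccnd1, -0.98 for Ccne2, -0.88 for Cks1b and -0.75 for Cks2. The Septin9-deficient replicates differed in the same direction, by -0.89, -0.68, -0.70, -0.77 and -0.83. The control replicates were closer for the other genes, at -0.61 for Cdk6, -0.41 for Cdk2, -0.16 for Cdk4, -0.00942 for Ccnd2 and 0.24 for Ccnd3. For 7 of the 10 genes in C2C12 and 5 in primary myoblasts, the control replicates were further apart than the fitted difference after siRNA. Mki67 and Top2a moved with the genes that were lower in replicate 2, at 371 and 454 CPM in control C2C12 replicate 1 and 213 and 201 CPM in replicate 2, while Myog had 5.19 and 37.5 CPM. Their part in the spread was not tested.

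Over the 8 libraries, with log2 CPM centred within each cell type, the levels of the E cyclins ran most alike, with a Pearson correlation of 0.997 between Ccne1 and Ccne2. The correlation was 0.949 between Ccnd1 and Cks2, 0.801 between Cks1b and Cks2 and -0.89 between Ccnd3 and Cks1b. These values describe 8 points that share cell type, experiment and siRNA treatment, and they carry no test. The siRNA contrast is part of them, so genes most like Cks1b are partly picked for being lower after siRNA. Among 10555 genes with a mean of at least 10 CPM, those most like Cks1b by this measure were Bmp2k at 0.986, Sae1 at 0.983 and Kif22 at 0.977, and 405 genes were more like Cks1b than Cks2 was. Sae1, a subunit of the SUMO-activating enzyme, had 137 and 105 CPM with control siRNA against 91.8 and 72.4 CPM with Septin9 siRNA in the C2C12 line. Kif22, a kinesin of mitotic chromosomes, had 72.5 and 33.8 CPM against 42.3 and 20.7 CPM. Of these 3 genes Kif22 held the seed heptamer after its coding sequence.

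The wider pathway was followed with lists of the other regulators, whose members were tested. These lists and those of the cell markers were chosen with earlier results of these data known. Their p-values and counts are thus no independent support. Many calls of list genes depended on the fit. Of 20 named calls after siRNA in C2C12 cells, Septin9 included, 7 were lost with DESeq2 and the block, 18 without replicate 1 and 14 without replicate 2, and of 17 in primary myoblasts, 11 were lost with RLE size factors, 9 with DESeq2 and the block and 3 without replicate 2, while all were lost without the block. Tfdp1 lost its call in neither cell type except without the block. Of 10 later cyclins, kinases and phosphatases, 3 fell and 0 rose in Septin9-deficient C2C12 cells and 1 fell and 0 rose in primary myoblasts. Over all genes tested, 4.12% fell and 2.64% rose in C2C12 cells and 1.04% fell and 3.95% rose in primary myoblasts, and the counts of each list stand beside these shares. Ccnb1, the mitotic cyclin that activates Cdk1, fell in both, with log2 fold changes of -0.41 in C2C12 cells (adjusted p = 0.000669, the quasi-likelihood test of edgeR) and -0.43 in primary myoblasts (adjusted p = 0.0258, edgeR), while Ccna2 and Cdk1 fell in C2C12 cells at -0.34 and -0.23. For these genes the C2C12 groups overlapped, and each Septin9-deficient replicate lay below the control of its own pair. Between control cell types Cdc25a was higher and Ccnb2 lower in primary myoblasts, at log2 differences of 1.17 and -1.05 (adjusted p = 0.0321 and 0.0315 from edgeR). Both calls were lost with the replicate block, without either C2C12 replicate and without primary replicate 1, and that of Cdc25a also without primary replicate 2.

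Among the CDK inhibitors, 1 of 5 tested rose in Septin9-deficient C2C12 cells and 2 of 7 rose in primary myoblasts, and 0 fell in either. Cdkn1a, the inhibitor induced as myoblasts leave the cycle, had 135 and 137 CPM with control siRNA against 199 and 159 CPM with Septin9 siRNA in the C2C12 line (log2 fold change 0.38, SE 0.07, adjusted p = 0.00319 from edgeR). Primary myoblasts had 1163 and 681 CPM against 1558 and 1061 CPM (0.53, SE 0.15, adjusted p = 0.0391 from edgeR). There Cdkn1c rose by 1.24 (SE 0.18, adjusted p = 0.000656 from edgeR). It had 66.6 and 22.2 CPM with control siRNA against 106 and 79.3 CPM with Septin9 siRNA, so its control replicates were far apart. Between control cell types 3 inhibitors were higher and 2 lower in primary myoblasts. Cdkn2a and Cdkn2b, inhibitors of Cdk4 and Cdk6, had 0 counts in all 4 C2C12 libraries and 105 to 132 CPM and 30.5 to 37.6 CPM in primary myoblasts. Cdkn1b, whose product is a target of the ligase that Cks1b assists, was lower in primary myoblasts at a log2 difference of -1.68 (SE 0.17, adjusted p = 0.00611 from edgeR).

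Of the 3 pocket proteins, 0 passed after siRNA in either cell type by edgeR, and Rbl2 was lower in control primary myoblasts at a log2 difference of -2.45 (SE 0.15, adjusted p = 0.00302 from edgeR). Of 10 E2F and DP factors, 2 rose and 2 fell in C2C12 cells, and 1 rose and 2 fell in primary myoblasts. Tfdp1, the partner through which E2F proteins bind DNA, fell, with log2 fold changes of -1.03 in C2C12 cells (adjusted p = 2.15e-07, edgeR) and -1.26 in primary myoblasts (adjusted p = 2.54e-05, edgeR), and E2f7, a repressor, fell at -0.37 and -0.57. Both hold the seed heptamer after the coding sequence, Tfdp1 in 2 of 3 transcripts and E2f7 in 1 of 4. The heptamer was also held by genes of the lists that did not fall. The pocket protein gene Rb1 (log2 fold changes -0.16 and 0.31) and Tfdp2 (-0.12 and -0.23), each in 1 transcript, did not pass in either cell type, and the myocyte marker Ckm, in 1 of 2 transcripts, rose in primary myoblasts at 1.14 (adjusted p = 0.000852, edgeR). E2f2 rose by 0.49 (adjusted p = 0.000162, edgeR) and 0.53 (adjusted p = 0.0115, edgeR). Of 7 ubiquitin ligase subunits tested from a list of 8, Fzr1, an activator of the anaphase-promoting complex, was the 1 that passed, at -0.54 (adjusted p = 0.000136, edgeR) in C2C12 and -0.43 (adjusted p = 0.0311, edgeR) in primary myoblasts. Skp1a of this list was left untested because the counts name it Skp1, not because of its level. Of 15 G1/S targets of E2F, 0 passed in C2C12 cells by edgeR, with 7 values above and 8 below 0. In primary myoblasts all 15 values were below 0, with a median log2 fold change of -0.27 against 0.01 over all genes, and Mybl2 passed at -0.46 (adjusted p = 0.028, edgeR).

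Muscle cell markers moved with the siRNA comparison. Of the 6 myoblast markers, Myod1, Chrna1 and Des rose in C2C12 cells, with log2 fold changes of 0.54, 0.51 and 0.49 (adjusted p = 4.57e-05, 0.00081 and 0.000261, edgeR). In primary myoblasts Myf5 and Pax7, markers of the undifferentiated state, fell at -0.78 and -0.44 and Des rose at 0.57 (adjusted p = 0.00679, 0.0221 and 0.0409, edgeR). The primary groups overlapped for Myf5, at 47.9 and 32.6 CPM with control siRNA against 38.1 and 13.3 CPM with Septin9 siRNA. The C2C12 groups overlapped for Myod1 and Chrna1. Of the 6 committed myocyte markers, 4 rose in C2C12 and 6 in primary myoblasts (2.64% and 3.95% of all genes did), and their summed level was 128 to 216 CPM with Septin9 siRNA in the C2C12 line and 6439 to 11860 CPM in Septin9-deficient primary myoblasts. Mki67 and Top2a fell in C2C12 cells, with overlapping groups and log2 fold changes of -0.50 and -0.32 (adjusted p = 0.000167 and 0.00508, edgeR), and did not pass in primary myoblasts. Of the fibroblast and fibro-adipogenic markers, Cd34 fell in C2C12 and Thy1 rose in primary myoblasts, with summed levels of 127 to 152 CPM and 12.5 to 97.7 CPM in the Septin9-deficient groups. The part of these markers in the values of the 10 genes was not tested.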

How the data were processed

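PolyA RNA of 8 mouse samples was sequenced. The authors mapped reads to GRCm38.p6 with STAR 2.7.2, counted them per gene with featureCounts 2.0.1 and deposited raw counts. They also deposited a normalized signal for each cell type, made with ComBat-Seq and DESeq2 1.40.1 size factors, from which whole reads were recovered for 100% of values (tolerance 0.05 reads) and used in an alternative. From the deposited counts, 16 broken lines were left out, and 2379 entries are further copies of listed genes.

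In R 4.3.3, edgeR 4.0.16 (filterByExpr, TMM, quasi-likelihood test, Benjamini-Hochberg adjustment over all genes tested) was fitted to each comparison, with TMM scaling per comparison. The siRNA comparisons have the replicate number as a block, since the study made independent experiments and removed their batch effect. Same-numbered samples deviated together, with correlations over genes of 0.553 (C2C12) and 0.791 (primary myoblasts). The cell type comparisons have no block. Adjusted p-values under 0.05 were called. With 2 replicates the p-values and SEs rest in part on a spread shared over all genes, and they speak for these libraries only. The SE is the size of the log2 fold change over the square root of the F statistic. It can be smaller than the spread between pairs, as for Cks1b in primary myoblasts (SE 0.14, pairs at -0.48 and -1.30). CPM were scaled by TMM over 8 libraries, and ratios within pairs used a prior count of 2. Exon lengths are the union of all exons of a gene in GENCODE M21. Alternatives were RLE size factors, no low-count filter, no block or a block, DESeq2 1.42.0, all 8 samples in 1 fit and each replicate left out. The fits were also run on simulated counts with a single spread for all genes and changes only in well-counted genes. The simulated cell type comparisons had no replicate effect. Such a run checks the code and cannot show how far the calls hold in these libraries.

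The members and the gene lists were chosen with earlier results of these data known, and so was the seed heptamer, searched in stretches of at least 20 bases after the coding sequence. Named are the 10 members, Septin9, up to 4 passing genes per list and comparison with the largest log2 fold changes, and the 3 genes most like Cks1b. No protein sequence and no promoter outside RefSeq was used here.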

Additional observations from a re-analysis of the deposited data

Results flagged for a closer look

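Cdk4 was singled out because its log2 ratio after Septin9 siRNA had the opposite sign in the cell types, in every replicate pair. The pairs stood at 0.21 and 0.09 in C2C12 cells and at -0.10 and -0.26 in primary myoblasts, and the fitted values differed by -0.32 on the log2 scale, primary myoblasts minus C2C12 cells. The difference was not tested.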

How the results depend on the processing

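After Septin9 siRNA edgeR called 1068 genes for C2C12 and 854 for primary myoblasts. With no replicate block it called 0 genes in both (372 and 378 genes at an unadjusted p under 0.05), and DESeq2 with the block called 276 and 256 genes. RLE size factors gave 295 genes in primary myoblasts. Higher calls made up 79.2% in primary myoblasts, 65.1% with DESeq2 on the batch-corrected counts and 62.7% and 54.9% without replicate 1 and 2. In C2C12 cells they made up 39.0%, and 56.1% and 51.4% without replicate 1 and 2. Leaving out a replicate pair gave 98 to 181 genes for C2C12 and 1277 to 2020 for primary myoblasts, in fits where the lone pair was assumed to vary like the other cell type. Cks1b had log2 fold changes of -0.94 to -0.83 and -1.29 to -0.49 without a pair. Between controls 5901 genes were called, and 512 to 4760 without a library. The lowest count came without C2C12 replicate 2, followed by 1556 without C2C12 replicate 1 and 3810 without primary replicate 1, with the lone sample assumed to vary like the others. Between Septin9-deficient cells 6496 genes were called, and 2272 to 6614 without a library (2272 and 3010 without C2C12 replicate 2 and 1). With the replicate block 4326 and 5693 genes were called, and with crossed replicate numbers, an alternative chosen after the data were seen because same-numbered control libraries deviated apart (correlation -0.13), 6645.

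Some log2 differences between the cell types turned in sign. Leaving out a library, Ccne2 ranged from -0.108 to 0.876 in controls and from -0.118 to 0.578 in Septin9-deficient cells, turning without C2C12 replicate 2. Cks2 ranged from -0.664 to 0.0903 and from -0.775 to 0.0538, turning without C2C12 replicate 1. Septin9, whose log2 differences of 0.01 and 0.14 did not pass, ranged from -0.174 to 0.15 (turning without C2C12 replicate 1 and without primary replicate 2) and from -0.0352 to 0.355 (turning without C2C12 replicate 1 and without primary replicate 1), and was at -0.0181 in controls without the filter on low counts. The causes were not tested. Of the comparisons of the 10 genes with an alternative, 310 counted as unchanged. Between cell types this meant the same direction and side of the threshold. After siRNA it meant a shift under the spread between replicate pairs, which leaving out a pair seldom exceeds. A lost call, or a turned sign in a gene not called, did not count as a change there. In C2C12 cells Ccnd1, Ccne1 and Ccne2 turned without replicate 1 (0.0628, 0.0387 and 0.0368) and Cdk6 without replicate 2 (-0.193). In primary myoblasts Ccnd2 turned without replicate 2 (-0.0207) and Cdk2 without replicate 1 (-0.0065). Precision was limited by 2 replicates per group.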
